A study of Mus musculus with 12 samples.

Results

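The 44 genes described here form the mitosis (G2/M) programme, a list given by gene symbol. All 44 were among the 23022 genes listed, and all 44 passed the filter on low values applied to them (11663 genes passed in all). They were measured by RNA-seq in 12 libraries of B16-F10 cells, a mouse melanoma line of C57BL/6 origin that carried Cas9 in every group. The 4 groups of 3 libraries were control cells (NTC) and cells edited at both *Mbnl1* and *Mbnl2* (DKO), each without IFNγ or with it. The sample labels call the control a no template control and the study's text calls it non-targeting. Per the study's methods, IFNγ was given at 1 ng/mL for 24 h. The Cas9 line was a single clone, the DKO protein loss in the edited population was incomplete, and the sources used here do not state whether the sequenced DKO cells were that population or a clone derived from it. Nothing states that replicates were separate cultures, so each p-value measures only the spread between these libraries, which may be technical.

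Cells enter mitosis when cyclin B binds Cdk1 and Cdc25 phosphatases remove the inhibitory phosphates from it. The spindle checkpoint then holds the anaphase-promoting complex (APC/C) in check until kinetochores are attached to microtubules, after which the APC/C marks cyclin B and securin for destruction and the cell divides. The genes of this programme are transcribed mainly in G2 and M, through promoters that often carry a CCAAT box, bound by NF-Y, and a cell cycle genes homology region (CHR), bound by DREAM and MuvB complexes. In bulk RNA, fewer cells in G2 and M and less of a transcript per cell cannot be told apart, and this holds for each value below.

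Promoter windows of 300 bases, 250 before and 50 after the RefSeq start on GRCm38.p6, matched 36 of the 44 genes. *Aurkb*, *Ccna2*, *Cdc25c*, *Dlgap5*, *Foxm1*, *Incenp*, *Kif20a* and *Tpx2* had no match. The CHR letters TTTGAA, searched on both strands, occurred in 25 of the 36 (69.4%), against 20.2% of all 27025 genes with a window. CCAAT, also on both strands, occurred in 29 of the 36 (80.6%) against 41.1%, and both motifs in 23 (63.9%) against 7.97%. Matches were counted wherever they lay in the window, overlapping or not. Stretches of 120 bases are shown for 7 genes, from which any bases that GENCODE places inside the gene were left out. *Ckap2* and *Cdc20* are shown because they were the members most raised in DKO cells, *Bub1*, *Ube2c* and *Nusap1* because they were among the most lowered, *Hmmr* for the largest difference with IFNγ, and *Top2a* for the highest level. Capitals mark the CHR (TTTGAA, or TTCAAA where it lies on the other strand) and the CCAAT box (CCAAT, or ATTGG).
Ckap2, chr8:22185820-22185939, minus strand: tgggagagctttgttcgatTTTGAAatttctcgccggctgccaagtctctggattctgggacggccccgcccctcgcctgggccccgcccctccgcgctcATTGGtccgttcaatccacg
Cdc20, chr4:118437353-118437472, minus strand: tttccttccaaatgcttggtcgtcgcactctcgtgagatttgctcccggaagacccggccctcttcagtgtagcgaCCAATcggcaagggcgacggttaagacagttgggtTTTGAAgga
Bub1, chr2:127831866-127831985, minus strand: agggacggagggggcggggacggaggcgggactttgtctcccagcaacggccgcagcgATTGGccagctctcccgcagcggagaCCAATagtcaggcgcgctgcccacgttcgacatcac
Ube2c, chr2:164769778-164769897, plus strand: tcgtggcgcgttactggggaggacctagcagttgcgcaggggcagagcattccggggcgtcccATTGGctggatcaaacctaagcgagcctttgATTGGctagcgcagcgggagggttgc
Nusap1, chr2:119618178-119618297, plus strand: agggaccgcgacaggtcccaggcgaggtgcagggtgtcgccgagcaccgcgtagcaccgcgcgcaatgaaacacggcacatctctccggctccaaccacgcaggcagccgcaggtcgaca
Hmmr, chr11:40733438-40733557, minus strand: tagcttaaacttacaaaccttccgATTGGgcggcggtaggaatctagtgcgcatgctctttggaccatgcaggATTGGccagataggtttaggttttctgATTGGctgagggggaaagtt
Top2a, chr11:99024190-99024309, minus strand: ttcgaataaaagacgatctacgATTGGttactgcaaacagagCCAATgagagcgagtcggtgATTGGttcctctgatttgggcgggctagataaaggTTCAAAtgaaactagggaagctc
The *Ckap2* and *Cdc20* stretches each held 1 CHR and 1 CCAAT box. *Bub1* and *Ube2c* each held 2 CCAAT boxes and no CHR there, *Hmmr* held 3 CCAAT boxes, *Top2a* held 3 with 1 CHR, and *Nusap1* held neither motif. The stretches are only parts of the windows counted above. In its full window, *Ube2c* had a CHR at −29 from the RefSeq start, among the 31 bases left out of its stretch. *Hmmr* had a CHR at 8 after that start, while *Bub1* and *Nusap1* had no CHR in their windows.

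Both targeted genes were lower in DKO libraries but still measured, at 41.1 to 47.5 TPM for *Mbnl1* (55.6 to 63.9 TPM in NTC libraries) and 83.9 to 98.0 TPM for *Mbnl2* (99.2 to 107 TPM in NTC libraries). Their relative *Mbnl3*, which was not targeted, was higher in DKO cells by 0.41 (log2) without IFNγ and by 0.28 with it. TPM values are corrected for length and given as a share of the library, so they keep no read depth. Listed genes summed to between 805782 and 874612 TPM, lower in each DKO library than in each NTC library. All 9 melanocytic markers of the labelled line were measured, and their sum was 20200 to 22300 TPM in NTC and 14200 to 15800 TPM in DKO libraries. Leukocyte markers summed to at most 1.85 TPM, endothelial markers to at most 0.914 TPM and fibroblast markers to at most 3.43 TPM, and the 3 epithelial markers were listed at 0. The fibroblast sum was 0.951 to 2.04 TPM in NTC and 2.74 to 3.43 TPM in DKO libraries. The part of the melanocytic and fibroblast markers in the genotype differences below was not tested.

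Summed over the 44 genes, TPM were 3526 ± 20.5 (SD, n = 3) in untreated NTC, 3759 ± 41.8 in IFNγ-treated NTC, 3481 ± 43.3 in untreated DKO and 3484 ± 89.0 in IFNγ-treated DKO libraries. The lowest treated NTC library (3713) stood above the highest library of any other group (3547), but as a share of all listed TPM the gap to the treated DKO libraries nearly closed. That share was 0.408% to 0.42% in untreated NTC, 0.428% to 0.436% in treated NTC, 0.418% to 0.426% in untreated DKO and 0.42% to 0.428% in treated DKO libraries. In untreated NTC cells, the decatenating enzyme *Top2a* (241.8 TPM) and the mitotic kinase *Cdk1* (237.8 TPM) were highest, followed by *Bub3* (228 TPM), and *Espl1* (20.0 TPM) and *Ttk* (17.1 TPM) were lowest. *Top2a* and *Cdk1* differed by less than the larger of their SDs (3.07 and 6.90 TPM). The members varied little within a group, with a median SD between replicates of 0.0514 (log2) in untreated NTC, 0.0466 in treated NTC, 0.0524 in untreated DKO and 0.0719 in treated DKO libraries. The same medians over all tested genes were 0.0715, 0.0789, 0.069 and 0.0934.

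The first comparison asked how these genes differed between DKO and NTC cells without IFNγ. Calls went in both directions, as they did over all tested genes. DKO cells had higher values for 10 of 44 members and lower values for 12, and 22 did not pass an adjusted p-value of 0.05 (limma on log2(TPM + 1), Benjamini-Hochberg over all 11663 genes). That is 50% called, where 36.4% of all tested genes were called, 17.0% higher and 19.4% lower. The median log2 difference was 0.01, against −0.01 over all tested genes, with a range from −0.46 to 0.61. An unadjusted p-value under 0.05 was found for 26 members. When libraries were scaled to 1 common total, 13 were higher and 7 lower in place of 10 and 12, since *Spag5*, *Top2a*, *Racgap1*, *Ccnb2* and *Ccnb1* no longer passed as lower. The calls of *Ccnb1* and *Spag5* were also lost without untreated NTC replicate 1 or 3 or untreated DKO replicate 1 or 2.

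With IFNγ in both genotypes, the balance lay on the lower side. Of 44 members, 7 were higher and 18 lower in DKO cells, 56.8% called, where 43.3% of all tested genes were called, 19.5% higher and 23.9% lower. The median log2 difference was −0.12, against −0.01 over all tested genes, with a range from −0.59 to 0.44, and 27 members had an unadjusted p-value under 0.05. Scaling to the same total gave 12 higher and 12 lower, and a median of −0.04, also the median after correction for GC content and transcript length, and *Spag5*, *Kif11*, *Kif4*, *Bub3*, *Aurka* and *Prc1* no longer passed as lower. Without treated DKO replicate 2 the counts were 6 higher and 16 lower and the median was −0.07. That library was the lowest of its group for 32 of the 44 members (38.1% of all tested genes), and its sum over the 44 was 3381 TPM beside 3531 and 3539 TPM in the other treated DKO libraries.

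The comparisons without and with IFNγ rest on separate libraries, though on 1 shared estimate of the spread, and 16 members were called in both, none in opposite directions. *Cdc20*, *Ckap2*, *Kif20a* and *Plk1* were higher at both treatments, 40% of the 10 and 57.1% of the 7. Over all genes, the corresponding shares were 73.8% and 64.4%. *Bub1*, *Bub3*, *Ccnb1*, *Ccnb2*, *Cdc25b*, *Ndc80*, *Nusap1*, *Racgap1*, *Spag5*, *Top2a*, *Tpx2* and *Ube2c* were lower at both, 100% of the 12 and 66.7% of the 18, beside 77.3% and 62.9% over all genes. The matched promoters of the first set held both motifs in 3 of 3 cases, those of the second in 6 of 11, and those of the members called at neither treatment in 4 of 9. A CHR, with or without a CCAAT box, lay in 7 of the 11. Among all 36 matched members, 23 (63.9%) held both motifs, and nothing is read from differences between sets this small. Neither comparison called 13 of the 44 members, beside 5583 of the 11663 tested genes. The 13 were *Ccna2*, *Cdc25c*, *Cenpa*, *Cenpe*, *Cenpf*, *Cks2*, *Dlgap5*, *Ect2*, *Incenp*, *Kif23*, *Nek2*, *Pttg1* and *Tacc3*.

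**Figure D1:**
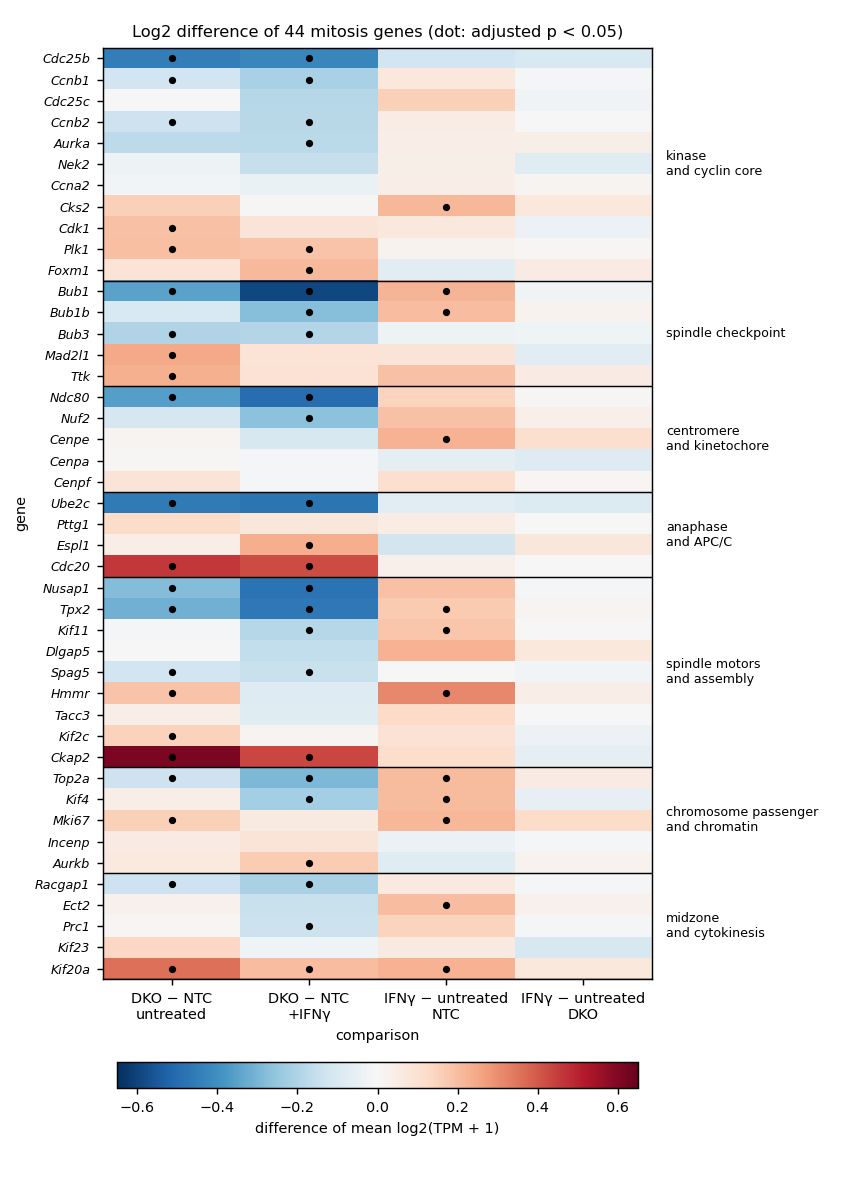
Each row is 1 of the 44 mitosis genes, grouped by role, each column 1 of 4 comparisons, and colour gives the difference of mean log2(TPM + 1) between groups of 3 libraries, with a dot where the limma adjusted p-value was under 0.05. Dots fill 22 cells without IFNγ and 25 with it in the columns of DKO against NTC, both signs among them, while IFNγ has 12 dots in NTC cells, all higher, and 0 in DKO cells.

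Among the 11 genes of the kinase and cyclin core, 2 were higher and 3 lower without IFNγ, and 2 were higher and 4 lower with it. That is 45.5% and 54.5% called, beside 36.4% and 43.3% of all tested genes. The kinase and its cyclins did not move alike. *Cdk1* was higher in untreated DKO cells by 0.19 (SE 0.0417, adjusted p = 0.00298), and with IFNγ its difference was 0.08 (adjusted p = 0.13). *Ccnb1* and *Ccnb2*, the B-type cyclins that switch Cdk1 on, were lower by 0.13 and 0.13 without IFNγ and by 0.21 and 0.18 with it. *Ccna2*, the A-type cyclin, differed by −0.02 and −0.04 and was not called.

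*Cdc25b*, the phosphatase that starts the activation of Cdk1, had the largest difference in this group. It stood at 55.7, 59.5 and 60.4 TPM in untreated NTC, 54.5, 50.9 and 55.7 TPM in treated NTC, 44, 41.8 and 42.1 TPM in untreated DKO and 39.5, 41.0 and 38.8 TPM in treated DKO libraries. Every DKO library lay below every NTC library, with an untreated log2 difference of −0.45 (SE 0.0498, adjusted p = 1.56e-05) and a treated one of −0.42 (adjusted p = 2.09e-05). Its relative *Cdc25c* differed by 0.00 and −0.18 and was not called (adjusted p = 0.973 and 0.0981). The kinase *Plk1*, which acts from mitotic entry to cytokinesis, was higher by 0.20 (adjusted p = 0.0133) and 0.19 (adjusted p = 0.0154), the first lost without untreated NTC or DKO replicate 1 and the second without treated NTC or DKO replicate 2 and after correction for GC content and transcript length. *Foxm1*, a transcription factor of G2/M genes, was higher with IFNγ by 0.21 (adjusted p = 0.00231) and differed by 0.09 without it (adjusted p = 0.148), and the treated call was lost after correction for GC content and transcript length in the fit with the replicate block (0.11, adjusted p = 0.0654). *Aurka*, the spindle pole kinase, passed as lower with IFNγ (−0.17, adjusted p = 0.0448), with groups that overlapped, and lost the call in 15 of 21 alternatives.

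The spindle checkpoint genes went both ways. *Bub1*, a checkpoint kinase at kinetochores, had the largest difference of all 44 with IFNγ. Its values were 66.8, 74.4 and 71.4 TPM in untreated NTC, 82.8, 84.3 and 80.8 TPM in treated NTC, 53.4, 56.7 and 56.1 TPM in untreated DKO and 54.9, 49.8 and 59.3 TPM in treated DKO libraries. All 6 DKO libraries lay below all 6 NTC libraries, with log2 differences of −0.35 (SE 0.0603, adjusted p = 0.000564) and, under IFNγ, −0.59 (adjusted p = 6.55e-06). The mean TPM was 21.8% and 33.8% lower. *Bub1b*, which encodes the checkpoint protein BubR1, was lower with IFNγ by 0.28 (adjusted p = 0.000182) and differed by −0.10 without it (adjusted p = 0.0822). *Bub3*, their binding partner, was lower by 0.20 and 0.19. *Mad2l1*, which restrains Cdc20, and *Ttk*, the kinase that starts checkpoint signalling, were higher without IFNγ by 0.25 (adjusted p = 0.00454) and 0.23 (adjusted p = 0.0194), and with it differed by 0.09 and 0.10 (adjusted p = 0.226 and 0.288). The *Ttk* call was lost without untreated NTC replicate 2 or untreated DKO replicates 2 or 3.

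Of the 5 centromere and kinetochore genes, *Ndc80* and *Nuf2*, which together hold microtubule ends, were the ones called. The share called was 20% without IFNγ and 40% with it, beside 36.4% and 43.3% of all tested genes. *Ndc80* was at 63.3, 58.4 and 57.4 TPM in untreated NTC, 64.2, 67.3 and 66.3 TPM in treated NTC, 42.7, 48.3 and 48.3 TPM in untreated DKO and 48.6, 44.2 and 46.9 TPM in treated DKO libraries. The genotypes did not overlap, with log2 differences of −0.36 (SE 0.0584, adjusted p = 0.000371) and −0.49 (adjusted p = 2.27e-05). *Nuf2* was lower with IFNγ by 0.27 (adjusted p = 0.00496) and differed by −0.11 without it (adjusted p = 0.207). *Cenpa*, the histone variant that marks centromeres, *Cenpf* and the kinesin *Cenpe* differed by −0.10 to 0.08 at either treatment and were not called.

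The genes of anaphase and the APC/C included a pair of opposite sign. *Cdc20*, the activator that turns the APC/C on at anaphase, was at 51.2, 58.8 and 53.1 TPM in untreated NTC, 54.3, 57.7 and 54.8 TPM in treated NTC, 75.9, 71.8 and 77.2 TPM in untreated DKO and 75.2, 81.5 and 68.5 TPM in treated DKO libraries. *Ube2c*, the ubiquitin-conjugating enzyme of the same complex, was at 147, 149 and 147 TPM, at 137, 146 and 137 TPM, at 113, 102 and 107 TPM and at 97.4, 109 and 95.9 TPM in the same order of groups. For both genes, the DKO and NTC libraries did not overlap. *Cdc20* was higher by 0.46 (SE 0.0656, adjusted p = 0.000129) and 0.42 (adjusted p = 0.000207), and *Ube2c* lower by 0.46 (adjusted p = 2.18e-05) and 0.48 (adjusted p = 1.42e-05). *Espl1*, which encodes separase, was at 19.6, 21 and 19.4 TPM, then 18.8, 18.3 and 17.9 TPM, in NTC libraries without and with IFNγ, and at 21.3, 20.3 and 20.4 TPM, then 22.3, 21.9 and 21.2 TPM, in DKO libraries. With IFNγ, *Espl1* was higher in DKO cells by 0.24 (adjusted p = 0.00233) and differed by 0.05 without it (adjusted p = 0.526). After correction of each library for GC content and transcript length, the *Espl1* difference fell to 0.08 and was not called. *Pttg1*, which encodes securin, differed by 0.12 and 0.07 (adjusted p = 0.316 and 0.532).

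Of the 9 genes of spindle motors and assembly, 3 were higher and 3 lower without IFNγ and 1 was higher and 4 lower with it. That is 66.7% and 55.6% called, beside 36.4% and 43.3% of all tested genes. *Ckap2*, a microtubule-associated protein of the spindle, had the largest difference of all 44 without IFNγ. Its libraries stood at 27.4, 26.5 and 28.4 TPM in untreated NTC, 28.4, 32.8 and 28.4 TPM in treated NTC, 40.2, 45.5 and 41.9 TPM in untreated DKO and 42.4, 37.8 and 41.9 TPM in treated DKO cells. All DKO libraries lay above all NTC libraries, with log2 differences of 0.61 (SE 0.0682, adjusted p = 1.58e-05) and 0.44 (adjusted p = 0.000224), or a mean TPM 55.0% and 36.4% higher. *Nusap1*, which bundles microtubules around chromosomes, was opposite in sign, at 59.6, 59.9 and 61.6 TPM, 66.1, 71 and 69.9 TPM, 48.9, 50.9 and 48.7 TPM and 51.3, 42.9 and 54.2 TPM in the same order of groups. It was lower in DKO cells by 0.28 (adjusted p = 0.00585) and 0.48 (adjusted p = 0.000112), with no overlap of the genotypes. *Tpx2*, which activates Aurora A and nucleates spindle microtubules, was lower by 0.31 (adjusted p = 0.000228) and 0.46 (adjusted p = 7.02e-06). The tetrameric motor *Kif11* differed by −0.01 without IFNγ and was lower with it by 0.19 (adjusted p = 0.00941), a call lost with the same total and after the correction for GC content and transcript length. *Kif2c*, a depolymerizing kinesin, passed without IFNγ (0.15, adjusted p = 0.0464) but lost the call in 11 of 21 alternatives.

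Among 5 genes of the chromosome passenger complex and chromatin, *Top2a* was lower in DKO cells, by 0.14 when untreated (adjusted p = 0.0442) and by 0.29 when treated (adjusted p = 0.000396). Its values were 245, 241 and 239 TPM in untreated NTC, 271, 280.2 and 288 TPM in treated NTC, 212, 226.5 and 222 TPM in untreated DKO and 227, 213 and 246 TPM in treated DKO libraries. The untreated call was lost in 12 of 21 alternatives, among them leaving out any of the 6 untreated libraries. *Mki67*, the proliferation marker Ki-67 that coats mitotic chromosomes, was at 75.1, 81.6 and 80.2 TPM, 90.8, 92.3 and 92.0 TPM, 85.6, 87.8 and 90.8 TPM and 93.4, 91.7 and 102 TPM in the same order of groups. It was higher in untreated DKO cells by 0.16 (adjusted p = 0.0217), lost without untreated NTC replicate 1 or untreated DKO replicates 2 or 3, and differed by 0.06 with IFNγ (adjusted p = 0.344). *Aurkb*, the kinase of the passenger complex, was higher with IFNγ by 0.16 (adjusted p = 0.0131), lost without treated NTC or DKO replicate 2, and its scaffold *Incenp* was not called (0.06 and 0.08).

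In the group of midzone and cytokinesis, *Kif20a*, a kinesin of the central spindle, was at 45.9, 46.7 and 49.1 TPM in untreated NTC, 56.3, 54.0 and 55.8 TPM in treated NTC, 58.9, 62.9 and 60.8 TPM in untreated DKO and 64.4, 59.6 and 67.6 TPM in treated DKO libraries. It was higher in DKO cells by 0.36 (SE 0.0514, adjusted p = 0.00013) and 0.20 (adjusted p = 0.00671). Its exons share 1271 bases, 29.3% of their length, with the APC/C subunit gene *Cdc23* on the opposite strand, and the libraries keep no strand. *Cdc23* stayed between 27.1 and 30.3 TPM in all 12 libraries and was not called in any comparison. *Racgap1*, part of the centralspindlin complex, was at 129.5, 128 and 129 TPM, 128, 139.7 and 137 TPM, 117, 117 and 118 TPM and 119, 114 and 116 TPM in the same order of groups. Its DKO libraries lay below its NTC libraries, by −0.13 (adjusted p = 0.016) and −0.21 (adjusted p = 0.0008) on the log2 scale. Its motor partner *Kif23* differed by 0.14 and −0.03 and was not called (adjusted p = 0.0816 and 0.729). The microtubule bundler *Prc1* passed as lower with IFNγ (−0.14, adjusted p = 0.0316) and lost the call in 8 of 21 alternatives. In all, 12 members share exon bases with a gene on the opposite strand, 6 of them over more than 10% of their exon length (*Ccna2*, *Cdc25c*, *Kif20a*, *Kif4*, *Prc1* and *Ube2c*), so their reads cannot be fully told apart from those of the neighbour. The neighbours of *Ube2c* and *Cdc25c* reached at most 0.713 and 1.0 TPM, and that of *Prc1* 10.2 TPM. Those of *Kif4* and *Ccna2* reached 86.6 and 92.1 TPM, where *Kif4* itself was at 22.9 to 29.7 TPM and *Ccna2* at 128.6 to 144.1 TPM. *Ccnb1*, *Ccnb2* and *Kif4* have annotated pseudogenes with which reads could have been shared.

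**Figure D2:**
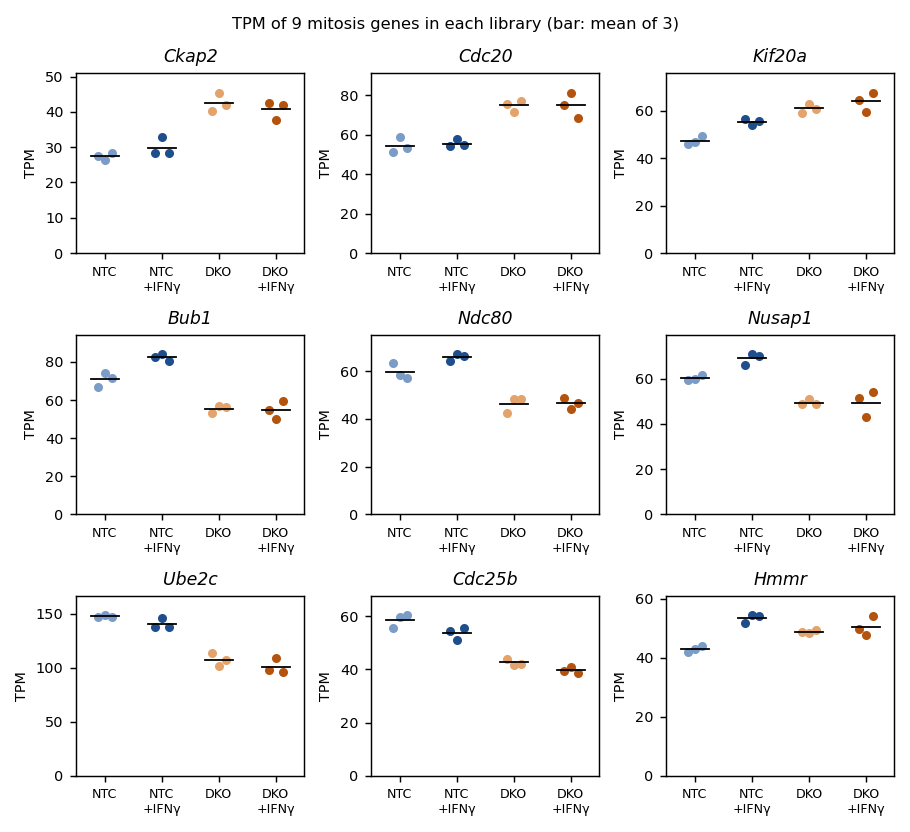
TPM of 9 mitosis genes in each of the 12 libraries, 3 points per group, with a bar at the mean of 3 and axes from 0. For the first 8 genes no DKO point crosses into the NTC points at the same treatment, above them for *Ckap2*, *Cdc20* and *Kif20a* and below them for the next 5, whereas for *Hmmr* the treated NTC points (51.7 to 54.5 TPM) overlap the treated DKO points (47.6 to 54.0 TPM). The first 8 were picked among the largest genotype differences, so their lack of overlap comes with that choice. The share of all tested genes without overlap is not given here, so nothing is read from it.

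**Figure D3:**
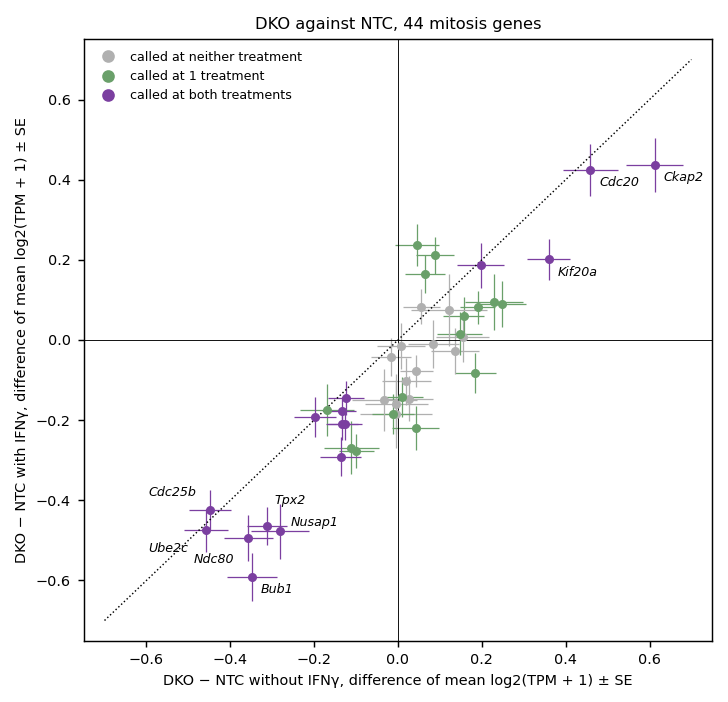
The difference of mean log2(TPM + 1) between DKO and NTC cells without IFNγ (x axis) and with it (y axis) for the 44 genes, with bars of 1 SE and a dotted line of equality. The 4 genes called higher and the 12 called lower at both treatments sit in the upper right and lower left, and *Bub1*, at −0.35 and −0.59, is the lowest point.

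The next comparison asked what IFNγ did to the programme in control cells. In NTC cells 12 of 44 members rose, 0 fell and 32 did not pass (27.3% called, where 12.1% of all tested genes were called, 7.31% higher and 4.78% lower). The median log2 difference was 0.10, against 0.02 over all tested genes, 36 of 44 lay above 0 (54.5% of all tested genes), and 21 had an unadjusted p-value under 0.05. In order of size, the 12 were *Hmmr* (0.31), *Cenpe* (0.23), *Kif20a* (0.23), *Bub1* (0.22), *Cks2* (0.22), *Mki67* (0.21), *Top2a* (0.21), *Kif4* (0.21), *Ect2* (0.20), *Bub1b* (0.20), *Kif11* (0.18) and *Tpx2* (0.17). They came from 6 of the 7 roles. The 4 genes of anaphase and the APC/C, *Cdc20*, *Ube2c*, *Pttg1* and *Espl1*, differed by −0.12 to 0.05 and were not called. With 12.1% of all tested genes called, nothing is read from the lack of calls among 4 genes. *Espl1* (56.1%), *Cdc20* (55.6%) and *Ube2c* (55.5%) were at the high end of GC content among the 44. So was *Plk1* (56.0%) of the kinase and cyclin core, which differed by 0.02. After the correction for GC content and transcript length given below, the differences of the 4 anaphase and APC/C genes ran from −0.04 (*Pttg1*) to 0.11 (*Cdc20*).

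*Hmmr*, a spindle-associated receptor for hyaluronan, rose most. It was at 41.9, 42.8 and 44 TPM without IFNγ and at 51.7, 54.5 and 54.3 TPM with it in NTC libraries (SE 0.0496, adjusted p = 0.00284), and at 48.9, 48.5 and 49.3 TPM, then 49.9, 47.6 and 54.0 TPM, in DKO libraries. The untreated DKO libraries lay between the untreated and the treated NTC libraries, and *Hmmr* was the 1 of the 12 whose call was kept under each of the 21 alternatives. *Cenpe*, a kinesin that moves chromosomes to the spindle equator, was at 29.2, 27.2 and 26.4 TPM without IFNγ and at 32.0, 32.5 and 32.8 TPM with it in NTC libraries (adjusted p = 0.0278), and at 26.7, 28.5 and 28.7 TPM, then 30.1, 28.1 and 32.3 TPM, in DKO libraries. *Cks2*, a small subunit of Cdk1 complexes, was at 148, 152 and 152 TPM without IFNγ and at 184, 182 and 159.9 TPM with it in NTC libraries (adjusted p = 0.0451), and at 164, 160.2 and 180.4 TPM, then 186, 163 and 180.0 TPM, in DKO libraries. The *Cks2* call was lost in 14 of 21 alternatives, *Kif11* in 13 and *Tpx2* and *Ect2* in 12.

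The count of 12 rested on single libraries. It was 6, 3 and 2 without untreated NTC replicates 1, 2 and 3, and 2 without treated NTC replicate 2 or replicate 3. The share of all tested genes called fell with it, from 12.1% to 8.69%, 3.38% and 2.98%, then 2.87% and 2.74%. The count was 6 with libraries scaled to 1 common total (9.98% of all tested genes) and 7 with no filter on low values (5.56%). The size of the difference also followed GC content. The 44 genes had a median GC content of 47.1% (range 40.1% to 56.1%), against 49.6% over the 11563 tested genes with a value. Across the 44 genes, the Spearman correlation of the IFNγ difference in NTC cells with GC content was −0.648, and −0.589 across those 11563 genes, all of them measured in the same 6 libraries. After each library was corrected for its trend with GC content and transcript length, 5 members were called (5.19% of all tested genes) and the median difference was 0.04.

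**Figure D4:**
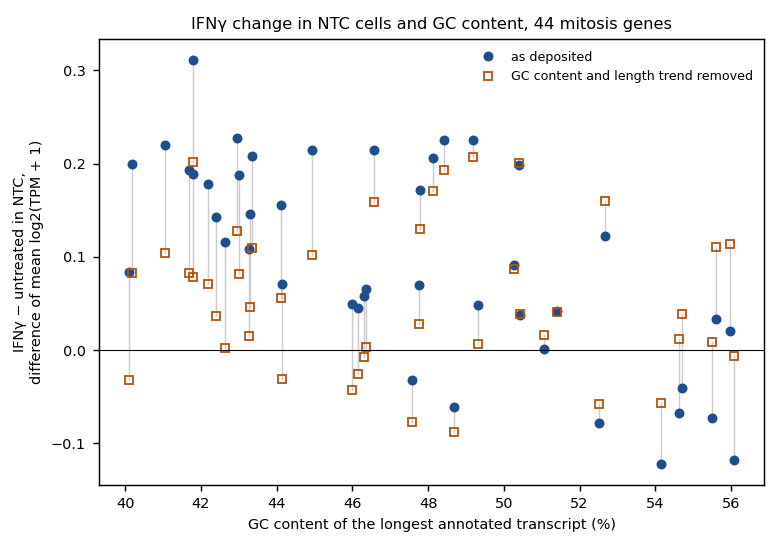
The difference of mean log2(TPM + 1) between IFNγ-treated and untreated NTC cells (y axis) against the GC content of each of the 44 genes (x axis, %), as deposited (filled circles) and corrected for GC content and transcript length (open squares), joined by a grey line per gene. The filled circles fall from left to right (Spearman correlation −0.648), and the median moves from 0.10 to 0.04.

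In DKO cells, IFNγ gave 0 calls among the 44 members by limma, with 1 member, *Mki67* (0.12), at an unadjusted p-value under 0.05 and a smallest adjusted p of 0.451. Over all tested genes, 0.78% were called, 0.677% higher and 0.103% lower. The median log2 difference was 0.00, against 0.01 over all tested genes, with a range from −0.11 (*Kif23*) to 0.12, and 24 of 44 lay above 0. Without treated DKO replicate 2 the median was 0.03 and the count stayed at 0. The correlation of these differences with GC content was −0.0637 across the 44 genes. Outside the programme, all 11 tested genes of a list of IFNγ response genes were called higher with IFNγ in DKO cells. Their median log2 difference was 1.79 there and 2.20 in NTC cells, where all 11 were also called higher.

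Whether the response to IFNγ differed between the genotypes was tested gene by gene as the DKO difference minus the NTC difference. It passed for 0 of 44 members by limma (smallest adjusted p = 0.364), with 12 at an unadjusted p-value under 0.05, where 0.0343% of all tested genes passed and 11.5% had such an unadjusted p-value. So the calls in NTC cells and the lack of them in DKO cells do not show that the genotypes responded differently for any one of these genes. The values lay below 0 for 38 of 44 members (51.6% of all tested genes), with a median of −0.12 against −0.01. The lowest were *Hmmr* (−0.27, SE 0.0701), *Kif4* (−0.26) and *Bub1* (−0.24), and the highest was *Espl1* (0.19, SE 0.0726). All 9 spindle motor and assembly genes, all 5 midzone genes and all 5 kinetochore genes lay below 0. The median moved to −0.06 after the correction for GC content and length, to −0.09 with the same total and to −0.08 without treated DKO replicate 2. Across the 44 genes the response difference had a Spearman correlation of 0.695 with GC content, and 0.515 across 11563 genes.

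**Figure D5:**
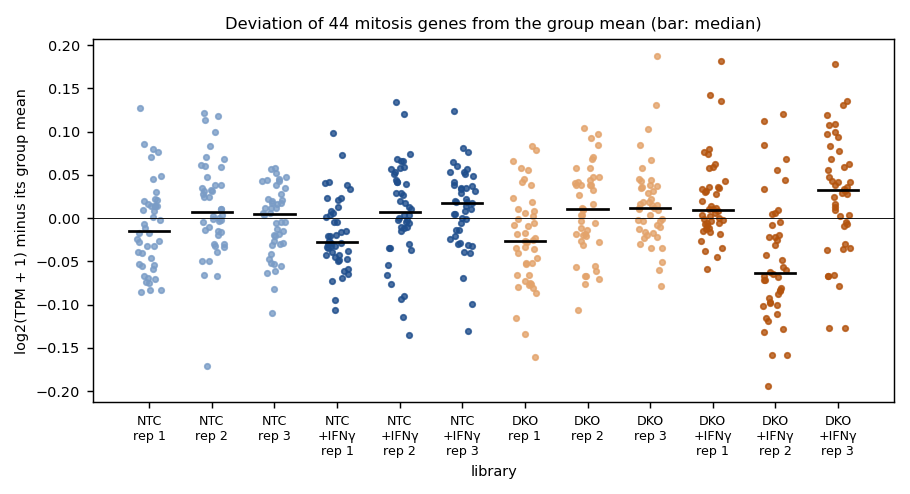
For each library (x axis), the log2(TPM + 1) of each of the 44 genes minus the mean of its group of 3 (y axis, 1 point per gene, bar at the median). Treated DKO replicate 2 has the lowest median, −0.06, and is the lowest of its group for 32 of the 44 genes.

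The other genes of the pathway, were counted in lists kept apart from the 44, and their shares called are read against the same 36.4% and 43.3% of all tested genes without and with IFNγ, and 12.1% for IFNγ in NTC cells. Nothing is read from a share near that background. These lists were counted in the main fit alone, not under the alternatives. The 12.1% fell to 2.74% without treated NTC replicate 3, so the list calls for IFNγ in NTC cells, *Cdkn1a* among them, may be as unstable. Of 57 other G2/M genes, 13 were higher and 10 lower in DKO cells without IFNγ and 7 higher and 21 lower with it, which is 40.4% and 49.1% called, and in NTC cells 10 rose and 2 fell with IFNγ (21.1%). In that list, *Psrc1*, a spindle protein and target of p53, was higher in DKO cells by 0.71 and 0.79, *Gtse1* by 0.53 and 0.55, and the kinetochore gene *Spc24* was lower by 0.63 and 0.60. Among 16 tested activators and brakes of Cdk1, 4 were higher and 3 lower without IFNγ and 4 higher and 2 lower with it (43.8% and 37.5%). The largest was *Cdkn1a*, which encodes the Cdk inhibitor p21. It was at 72.8, 95.5 and 89.8 TPM in untreated NTC, 70.1, 61.1 and 59.1 TPM in treated NTC, 260.3, 218 and 211 TPM in untreated DKO and 211, 234 and 189 TPM in treated DKO libraries. The genotypes did not overlap, with log2 differences of 1.41 (SE 0.108, adjusted p = 6.47e-07) and 1.72 (adjusted p = 1.03e-07), and in NTC cells *Cdkn1a* fell by 0.43 with IFNγ (adjusted p = 0.0261).

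Of 15 tested APC/C subunits, 3 were higher and 2 lower without IFNγ and 2 higher and 4 lower with it (33.3% and 40% called), with *Anapc16* the lowest of those called (−0.42 and −0.37). The 23 DREAM, E2F and NF-Y genes gave 4 higher and 6 lower, then 5 higher and 7 lower (43.5% and 52.2% called). *E2f2* was higher by 0.48 and 0.46, and the retinoblastoma family genes *Rbl1* and *Rb1* were lower by 0.30 and 0.42 and by 0.30 and 0.49. *Rbl2*, of the same family, was not called (−0.07 and −0.09, adjusted p = 0.337 and 0.223). Of 15 tested genes in the list of G1 and S cyclins and kinases, which also holds inhibitors, 9 were higher and 3 lower at each treatment (80% called). *Ccne1*, which encodes the G1/S cyclin E1, was higher by 0.90 and 0.87 and *Ccnd1*, which encodes cyclin D1, by 0.59 and 0.93, and *Cdk6*, a partner of the D-type cyclins, by 0.49 and 0.79, while *Cdkn2c*, an inhibitor of Cdk4 and Cdk6, was lower by 0.46 and 0.64. The other lower genes were the kinases *Cdk2* (−0.45 and −0.36) and *Cdk4* (−0.22 and −0.16). Another inhibitor, *Cdkn2d*, was higher (0.25 and 0.36). Of 28 DNA replication genes, 12 were higher and 3 lower, then 10 higher and 4 lower (53.6% and 50% called), and the origin recognition gene *Orc1* was higher by 0.61 and 0.48. With IFNγ in NTC cells, 2 activators or brakes of Cdk1 rose and 3 fell (31.2% called), 2 APC/C genes rose and 2 fell (26.7%), 1 DREAM, E2F or NF-Y gene rose and 1 fell (8.7%), 2 G1 and S genes fell (13.3%), and 3 replication genes rose and 2 fell (17.9%). In DKO cells, 1 gene of these lists was called with IFNγ, the APC/C subunit *Anapc5* (−0.16, adjusted p = 0.0311).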

How the data were processed

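RNA was sequenced from 12 libraries, 3 per group. Per the study's methods these were poly(A)-selected, unstranded, paired reads of 50 bp, about 40 M per sample. The authors quantified genes with RSEM 1.2.4, calling Bowtie on a merged annotation, and passed unaligned reads to TopHat (listed as 20.8b) on mm10. The deposited values are named counts but are TPM made by the authors. Being shares of a library rather than whole numbers, they keep no depth, so precision came from replicates, and no count model was used. Their scaling between libraries is not stated. Genes reaching 1 TPM in 3 or more libraries were fitted as log2(TPM + 1) in limma 3.58.1 (R 4.3.3), with 1 mean per group, an intensity-dependent prior and Benjamini-Hochberg adjustment at 0.05. Such differences understate changes of low genes. The fit was tested on simulated data.

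The 44 genes and all lists were chosen with earlier results of these data known, so list counts and medians are descriptions without tests. Members could all be named, in order of the log2 difference among those called. Values in all libraries were given for at most 15 members, each the largest of its role in some comparison. Under that cap, some others of this kind, such as *Kif4* and *Kif23*, were left out. Up to 4 genes per other list were named by size, and further ones where they differed from those named. GC content, length and overlaps came from GENCODE M21 (22251 of 23022 genes matched) and promoters from RefSeq. Alternatives were a pseudocount of 0.1, no filter or one of 5 TPM, same-total and median-ratio scaling, only the 6 libraries compared, a replicate block, correction for GC content and transcript length, and leaving out each library. Python 3.11.15, numpy 2.4.6, pandas 2.3.3 and matplotlib 3.10.9 were used.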

Additional observations from a re-analysis of the deposited data

How the results depend on the processing

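The number of members called with IFNγ in NTC cells (12) was the least stable value: 7 with no filter on low values, 6 with the same total, 5 after correction for GC content and transcript length, 3 after that correction in the fit with the replicate block, and 2 to 16 when each library was left out in turn. Its median (0.10) was 0.0684 with the same total and 0.0436 with that correction, with or without the block. Of the other medians, that of the response difference (−0.12) was −0.0865 with the same total, −0.0632 with that correction, with or without the block, and −0.144 to −0.083 with each library left out. That of DKO against NTC without IFNγ (0.01) was 0.0645 with the same total. That of DKO against NTC with IFNγ (−0.12) was −0.0376 with the same total, −0.0356 with that correction, with or without the block, and −0.142 to −0.067 with each library left out. The median with IFNγ in DKO cells (0.00) lay between −0.0142 and 0.0314 with each library left out. The causes were not tested. The counts of DKO against NTC ran from 16 to 25 without IFNγ and from 21 to 27 with it over all alternatives. No called member reversed. Calls were kept under every alternative for 13 of 22 members without IFNγ, 15 of 25 with it, and 1 of 12 for IFNγ in NTC cells.

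Libraries with the same replicate number did not deviate together, with correlations of their deviations from −0.179 to 0.182 (over 0.1 in 4 of 18 pairs), beside −0.219 to 0.213 for different numbers (9 of 36). The fit with the replicate block alone called 9 members for IFNγ in NTC cells, 0 in DKO cells, 0 for the response difference, 19 for DKO against NTC without IFNγ and 24 with it. The fit restricted to 6 libraries was not run for the response difference, which needs all 12. The precision was limited by 3 libraries per group, and read depth is unknown.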
